A study of Mus musculus with 6 samples.

Results

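Most acute-phase genes code for proteins that inflamed tissue releases into blood and surrounding fluid. Here 9 acute-phase genes were followed in a mouse microvascular endothelial cell line, 1G11. They were the serum amyloid A genes Saa1, Saa2 and Saa3, the lipocalin Lcn2, haptoglobin (Hp), the long pentraxin Ptx3, orosomucoid (Orm1), ceruloplasmin (Cp) and the metalloreductase Steap4. Every non-control spot whose transcript or description named one of these genes was taken, with no measured value in the choice. This gave 10 probes, 2 of them for Cp and 1 for each other gene, among 55681 probes and 36898 genes or unnamed transcripts on the array. A further probe was described as similar to rat haptoglobin but lies on chromosome 1, whereas Hp is on chromosome 8, and it was left aside, being at background on all 6 arrays.

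RNA came from 3 biological replicates of 1G11-mock cells and 3 of 1G11-SOD3 cells, which overexpress the extracellular superoxide dismutase SOD3, an enzyme that removes superoxide outside the cell. Both lines carry the strain label C57BL/6NCrLBR, and both had spent 6 h in conditioned medium of the mouse mammary cancer line N202.1A before lysis, so that no array shows 1G11 cells without tumor medium. The 6 single-color arrays lay on 1 slide, the 1G11-mock arrays in one slide row and the 1G11-SOD3 arrays in the other, and line and slide row cannot be told apart. It was not stated whether each line is 1 clone, and a property of either line other than SOD3 cannot be told apart from SOD3 here.

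Overexpression was seen in the Sod3 probe, which read 13.61, 12.66 and 9.86 in 1G11-mock replicates 1, 2 and 3 and 16.37, 16.30 and 16.26 in 1G11-SOD3 cells (log2 intensity), a 19.2-fold difference. Its spot lay in the middle of the array, a central block of rows and columns where signal depended on position. After an adjustment for position the 1G11-mock arrays read 13.86, 13.16 and 11.48 and the difference was 6.35-fold. Between 34.2% and 43.8% of 59305 spots were well above background on each array, and the smallest 2-sided p that an exact permutation of 3 against 3 arrays can give is 0.1.

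Acute-phase proteins are best known as products of the liver, where interleukin-6 acts through STAT3 and interleukin-1 and TNF act through NF-κB and C/EBP factors. Some are also made outside it. SAA3 is a mainly extrahepatic serum amyloid A of the mouse, and lipocalin-2 and PTX3 are released by many stimulated cells, PTX3 by endothelium among them. Serum amyloid A proteins bind to high-density lipoprotein and attract leukocytes, lipocalin-2 withholds iron from bacteria by binding their siderophores, haptoglobin captures free hemoglobin, and ceruloplasmin is a copper-carrying ferroxidase.

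The sequences before the gene starts show which letters the genes with the widest range over the arrays (Saa3, Saa1 and Lcn2) share, and Steap4 is printed because it alone held the other motifs searched. RefSeq sequence of build GRCm38.p6 was at hand for 7 of the 9 genes. The 250 bases before the start are given 5′ to 3′ on the gene's strand, with matches in capitals. The Saa3 window lies wholly, and the Saa1 window partly, inside the annotated gene span (chr7:46711998-46719615 and chr7:46740497-46743181). These windows precede 1 annotated start, and the gene span reaches further upstream. Motifs searched on both strands were the NF-κB consensus, TTNNGNAA for C/EBP and TTCNNNGAA for STAT factors.
Saa3, chr7:46715677-46715926, minus strand: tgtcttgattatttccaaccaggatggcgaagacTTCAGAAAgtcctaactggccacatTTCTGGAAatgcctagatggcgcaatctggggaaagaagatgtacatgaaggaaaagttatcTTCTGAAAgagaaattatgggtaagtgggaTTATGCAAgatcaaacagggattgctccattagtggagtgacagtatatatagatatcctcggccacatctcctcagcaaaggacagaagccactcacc
Saa1, chr7:46742981-46743230, minus strand: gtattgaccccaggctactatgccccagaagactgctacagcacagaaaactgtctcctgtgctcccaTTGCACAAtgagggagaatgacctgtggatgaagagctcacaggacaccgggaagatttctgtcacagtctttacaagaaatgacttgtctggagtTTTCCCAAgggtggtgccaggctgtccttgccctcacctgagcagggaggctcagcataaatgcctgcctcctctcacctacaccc
Lcn2, chr2:32387740-32387989, minus strand: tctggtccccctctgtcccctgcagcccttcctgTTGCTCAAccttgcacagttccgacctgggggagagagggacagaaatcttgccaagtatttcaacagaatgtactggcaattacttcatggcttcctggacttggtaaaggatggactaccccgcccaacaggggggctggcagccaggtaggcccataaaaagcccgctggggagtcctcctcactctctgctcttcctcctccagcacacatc
Steap4, chr5:7960222-7960471, plus strand: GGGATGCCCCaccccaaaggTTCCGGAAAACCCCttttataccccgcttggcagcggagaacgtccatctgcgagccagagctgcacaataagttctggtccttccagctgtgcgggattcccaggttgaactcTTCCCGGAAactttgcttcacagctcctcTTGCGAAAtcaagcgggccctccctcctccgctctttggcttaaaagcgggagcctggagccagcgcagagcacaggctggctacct

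Each of the 7 genes held at least 1 C/EBP match, against 36.8% of 32851 promoters of the same length. Saa3 held 4 and Saa1 held 2, and 0.591% of all promoters held 4 or more. The NF-κB consensus, present in 7.25% of promoters, and the STAT motif, present in 7.02%, were found only before Steap4, where 1 NF-κB match overlaps a C/EBP match. The upstream sequences of Saa1 and Saa2 were 94.8% identical, whereas Saa1 and Saa3 were 52.5% identical. A match describes letters only and is neither a site nor a cause, and a missing match shows only that these letters are not in this window.

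Before any comparison, detection was read from the scanner software's call of well above background. The probes of Saa3, Lcn2, Hp and both Cp transcripts were well above background on all 6 arrays. Saa1 was so on 3 1G11-mock and 2 1G11-SOD3 arrays and Steap4 on 1 1G11-mock array, replicate 3. Saa2, Ptx3 and Orm1 passed this call on no array, and no fold change is given for them. No probe of the 9 genes lay in the middle of the array described above. None was saturated or marked as an outlier, and each was printed once.

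**Figure D1:**
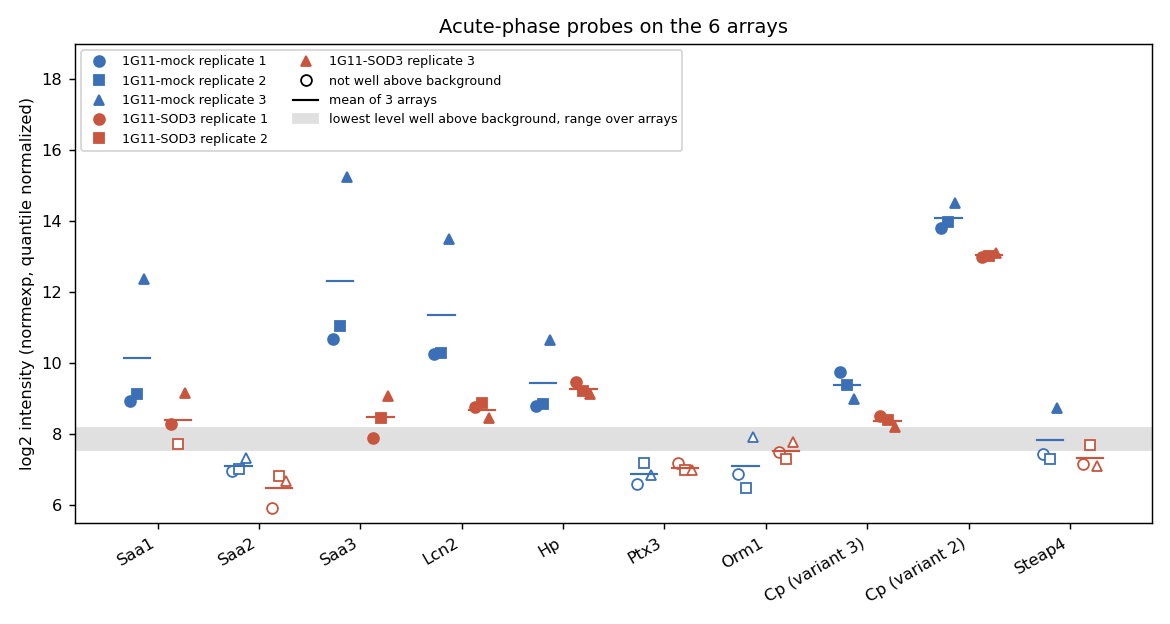
The plot gives the log2 intensity (vertical axis) of each acute-phase probe (horizontal axis) on 3 1G11-mock arrays (blue) and 3 1G11-SOD3 arrays (red). Marker shapes stand for replicate numbers, open markers for arrays not well above background, short lines for means, and the gray band for the lowest level well above background over the arrays (7.56 to 8.17). Replicate 3 of 1G11-mock lies far above the other 1G11-mock arrays for Saa1, Saa3 and Lcn2.

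Across the lines, 2 of the 10 probes, Saa3 and Cp transcript variant 2, were lower in 1G11-SOD3 cells at more than 2-fold with an adjusted p under 0.05, and 0 were higher. Over the whole array 2.93% of probes were called, 1.06% lower and 1.87% higher. Of 19774 probes well above background on all arrays of a line, 2.86% were called lower. With the replicate number as a block, 5 of the 10 were called lower, against 1.44% of all probes, and after position adjustment 0 of the 10, against 1.61%. The 1G11-SOD3 values were all under the 1G11-mock values without overlap in 5 of the 10 probes, against 10.3% of all probes. Saa2, at background, was among the 5. In the 6 probes well above background on all arrays of a line the count was 4, against 17.4% of the array's probes of that kind. Values below are log2 intensities, background corrected and quantile normalized, and differences are 1G11-SOD3 minus 1G11-mock on the same scale. RNA of whole cultures was measured, in which fewer cells making a transcript and less transcript per cell cannot be told apart.

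Saa3 showed the largest difference of the acute-phase probes compared. Its probe (chr7:53970389-53970448 in the array annotation, build not given in the files) read 10.69, 11.05 and 15.25 in 1G11-mock replicates 1, 2 and 3. In 1G11-SOD3 cells it read 7.90, 8.46 and 9.06. The lines did not overlap, and most of the 1G11-mock spread was due to replicate 3. The difference was -3.86 (SE 0.920, 95% interval -5.87 to -1.84, n = 3 arrays per line), or 14.5-fold lower in 1G11-SOD3 cells (limma, adjusted p = 0.0480). Without 1G11-mock replicate 3 it was -2.39 (limma, adjusted p = 0.00840). The call was lost after position adjustment over all probes, at -3.51 (limma, adjusted p = 0.0690). It was made when dim probes were left out of the position-adjusted fit as well (limma, adjusted p = 0.0459), a setting chosen after seeing the data, which also called Lcn2 (limma, adjusted p = 0.0498). The call was also lost when 1G11-mock replicate 2 or any 1G11-SOD3 array was left out (limma, adjusted p up to 0.152).

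Saa1 (probe at chr7:53996070-53996129) shared that array. It read 8.95, 9.14 and 12.38 in 1G11-mock cells, and 8.28, 7.72 and 9.17 in 1G11-SOD3 cells. Here the lines overlapped, since the highest 1G11-SOD3 array, replicate 3, lay above 1G11-mock replicates 1 and 2. The difference of -1.77 (SE 0.740) did not pass the test (limma, adjusted p = 0.299), passed with the replicate block (limma, adjusted p = 0.0295), and was -0.65 without 1G11-mock replicate 3. SAA1 and SAA2 are closely related proteins, and whether the Saa1 probe also binds Saa2 transcripts was not tested. The Saa2 probe was at background throughout, at 6.95 to 7.32 in the former line and 5.93 to 6.83 in the latter.

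Lcn2, the siderophore binder, followed the same order of 1G11-mock arrays. Its probe (chr2:32240199-32240258) read 10.26, 10.29 and 13.50 in 1G11-mock cells. In 1G11-SOD3 cells it read 8.75, 8.87 and 8.45. The lines did not overlap, and the 1G11-SOD3 arrays lay within 0.5 of each other. The difference of -2.66 (SE 0.678, 95% interval -4.15 to -1.17), a ratio of 6.32 in favor of 1G11-mock, just missed the test (limma, adjusted p = 0.0633). It passed with the replicate block (limma, adjusted p = 0.0228) and also without 1G11-mock replicate 3, where the difference was -1.58 (limma, adjusted p = 0.0111). It missed without background correction (limma, adjusted p = 0.190) and after position adjustment over all probes (limma, adjusted p = 0.0772). Leaving out 1G11-mock replicate 2 or any 1G11-SOD3 array also gave no call (limma, adjusted p up to 0.209).

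Haptoglobin, the hemoglobin scavenger, did not follow the line. Its probe (chr8:112099045-112099104) read 8.80, 8.86 and 10.66 in 1G11-mock cells, and 9.46, 9.22 and 9.14 in 1G11-SOD3 cells. All 1G11-SOD3 arrays lay between 1G11-mock replicates 1 and 2 below and replicate 3 above. The difference was -0.17 (SE 0.422, 95% interval -1.09 to 0.76; limma, adjusted p = 0.903), and it was 0.44 without 1G11-mock replicate 3 and 0.16 on the processed signal.

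Ceruloplasmin, the plasma ferroxidase, was measured by 2 probes for different transcripts, and both were lower in every 1G11-SOD3 array than in every 1G11-mock array. Transcript variant 2 (probe at chr3:19889071-19889130) read 13.81, 13.98 and 14.51 in 1G11-mock cells and 13.00, 13.03 and 13.10 in 1G11-SOD3 cells. The 1G11-SOD3 arrays were tightly grouped (SD 0.0517). The difference of -1.06 (SE 0.243), 2.08-fold lower, was called (limma, adjusted p = 0.0403). It was -0.79 after position adjustment and -0.85 without 1G11-mock replicate 3, under 2-fold in both cases, and leaving out any array but 1G11-mock replicate 1 ended the call.

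Transcript variant 3 of Cp (probe at chr3:19907511-19907570) read 9.76, 9.38 and 9.0 in 1G11-mock cells and 8.50, 8.39 and 8.21 in 1G11-SOD3 cells. Replicate 3 was the lowest 1G11-mock array here and the highest for variant 2. The difference of -1.01 (SE 0.25) nearly matched that of variant 2 in size and missed the test (limma, adjusted p = 0.0556), but passed with the replicate block (limma, adjusted p = 0.0300). It was -0.72 after position adjustment.

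Steap4, a reductase of iron and copper, read 7.45, 7.29 and 8.74 in 1G11-mock cells and 7.17, 7.69 and 7.11 in 1G11-SOD3 cells. Only 1G11-mock replicate 3 was well above background, and the other 1G11-mock arrays lay within the range of the 1G11-SOD3 arrays. The difference of -0.50 did not pass the test (limma, adjusted p = 0.585). With the 1G11-SOD3 values raised to at least the lowest level well above background, the 1G11-mock mean was 1.07-fold theirs. That ratio rests on 1G11-mock replicate 3 and is no lower bound, since the other 1G11-mock arrays were at background too. Without replicate 3 of 1G11-mock the difference was -0.05, between arrays all at background. Ptx3, the pattern recognition protein, read 6.59 to 7.19 in 1G11-mock cells and 6.99 to 7.18 in 1G11-SOD3 cells. Orm1, a plasma carrier of the lipocalin family, read 6.48 to 7.92 and 7.30 to 7.79. These probes give no level for either line.

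**Figure D2:**
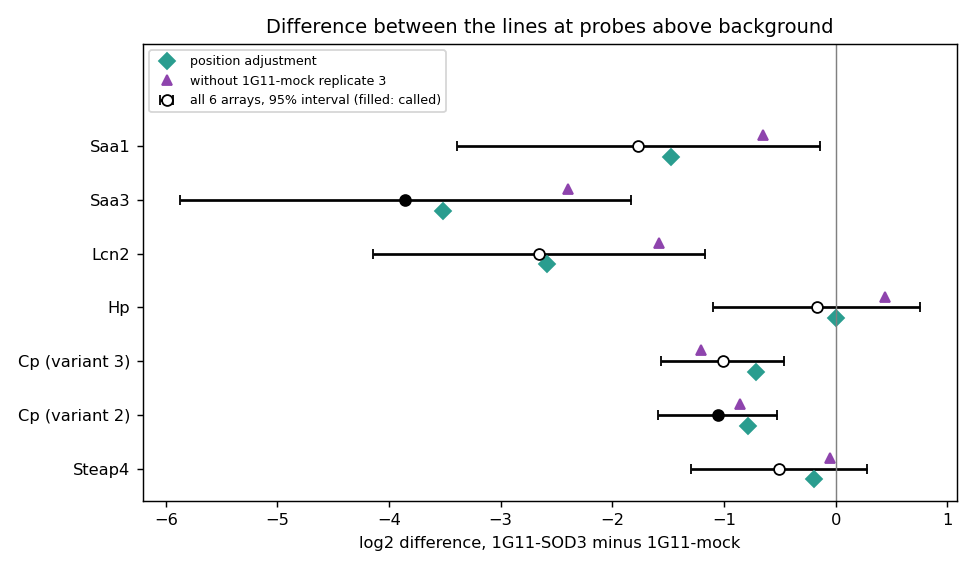
The plot gives the log2 difference between the lines (1G11-SOD3 minus 1G11-mock, horizontal axis) for the 7 probes well above background on at least 1 array. Circles with 95% intervals use all 6 arrays (filled where called), diamonds the position-adjusted values and triangles the values without 1G11-mock replicate 3. Saa3, Lcn2 and both Cp probes stayed below 0 in all 3 forms, whereas Hp moved across 0.

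The array of 1G11-mock replicate 3 was then set against the mean of 1G11-mock replicates 1 and 2, probe by probe, over 19700 probes well above background on all arrays of a line with a value on every array. Saa3 had the largest excess of all these probes, 4.38 on the log2 scale or 20.9-fold. Saa1 followed with 3.34 and Lcn2 with 3.23. No other probe exceeded 3 on this array, and 16 exceeded 2. The excess of Hp was 1.83, a size that 24 probes reached or passed.

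The median excess of all probes on 1G11-mock replicate 3 was 0.06, but the array stood apart from the others downward. There 348 probes lay more than 2 below the mean of the other arrays of the line, against 2 to 24 on each of the other 5 arrays. The part of this in the acute-phase values was not tested. The fitted position effect on that array was 0.14 at the Saa3 spot, 0.02 at the Saa1 spot and -0.10 at the Lcn2 spot. Raw mean intensities at the Saa3 spot, before any processing, were 1670, 1820 and 31400 in 1G11-mock replicates 1, 2 and 3. Ceruloplasmin did not share the pattern, with an excess of 0.62 for variant 2 and -0.57 for variant 3. Sod3, in contrast, was lowest on this array before and after position adjustment, as given above, and its part in the pattern was not tested. Upward, other arrays had large departures of their own, with 20 probes exceeding 3 on 1G11-mock replicate 1 and 2 on 1G11-SOD3 replicate 3.

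**Figure D3:**
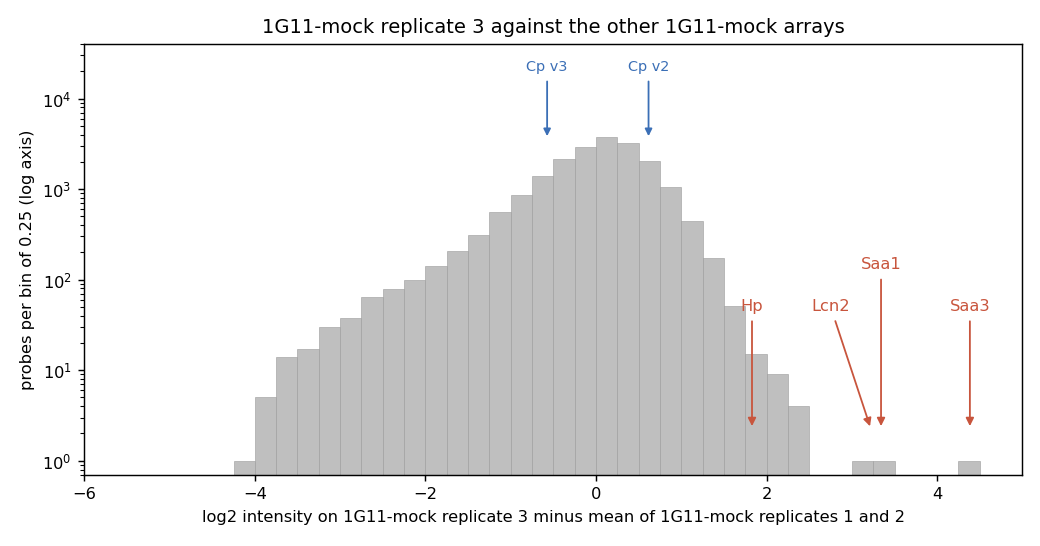
The histogram counts probes (vertical log axis) by their log2 intensity on 1G11-mock replicate 3 minus the mean of 1G11-mock replicates 1 and 2 (horizontal axis, bins of 0.25). Arrows mark Saa3 at 4.38, Saa1 at 3.34, Lcn2 at 3.23, Hp at 1.83 and the Cp variants at 0.62 and -0.57. The first 3 lie beyond the end of the distribution, whose lower tail reaches below -4.

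Same-numbered replicates were also set side by side. For Saa3 the difference between the lines was -2.78, -2.60 and -6.19 for replicate numbers 1, 2 and 3. Lcn2 gave -1.51, -1.42 and -5.05 and Saa1 gave -0.67, -1.42 and -3.22. For Saa3 and Lcn2, whose lines did not overlap, any pairing of the arrays gives negative differences. The difference for number 3 was the largest for each gene, which restates the excess on 1G11-mock replicate 3 given above. For Hp the differences were 0.66, 0.36 and -1.52, so that its sign turned at number 3.

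Most markers of hepatocytes, myeloid cells and mammary epithelium were at background. Among 10 hepatocyte markers 8 were well above background on no array, albumin (Alb) included. Among 12 myeloid markers 9 were so on no array, Ptprc and S100a8 included. The hepatocyte marker Apoa2 (mean 11.68) and the myeloid markers Itgam (14.19) and Csf1r (9.17) were well above background on all 6 arrays. Ahsg was so on 2 1G11-mock and 3 1G11-SOD3 arrays, and Camp on 1 1G11-SOD3 array. Of 10 mammary epithelial markers 6 were well above background on no array, Epcam included, but Krt19 was bright, at 16.02 to 16.76 on the 1G11-mock arrays. The brightest genes of these lists, Apoa2, Itgam and Krt19, differed from their mean on the other 1G11-mock arrays by 0.14, -0.43 and 0.42 on 1G11-mock replicate 3. The summed linear level of the myeloid list ran from 17126 to 23459 in 1G11-mock arrays and from 19098 to 24461 in 1G11-SOD3 arrays, that of the hepatocyte list 5150 to 6087 and 4507 to 5165, and that of the epithelial list 67881 to 112697 and 45140 to 84951. Each sum was mostly 1 gene, since Itgam made up 88.7% to 92.1% of the myeloid sum, Apoa2 51.2% to 71.8% of the hepatocyte sum and Krt19 96.0% to 98.5% of the epithelial sum.

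Endothelial markers were detected in part. Of 12 endothelial markers, Kdr, Eng, Esam and Vwf were well above background on all 6 arrays, whereas 5 were so on no array, among them Cdh5 (VE-cadherin) and Tek. The methods state that VE-cadherin protein was stained at intervals to check the origin of the line. Vwf fell by 1.65 and Egfl7 rose by 1.82, the latter not called after position adjustment (0.96). The brightest, Eng, missed the test (-1.05; limma, adjusted p = 0.0835). Of 9 markers of adipocytes or mesenchymal cells, 3 were called higher in 1G11-SOD3 cells and 0 lower, against 2.14% and 1.27% of all genes. They were Col1a1 (log2 difference 3.1), Pdgfrb (2.39, with 1 of the 1G11-mock arrays well above background) and Lum (at least 2.24-fold, with no 1G11-mock array well above background). Pdgfra (0.52) and Dcn (0.29) were not called, and the adipocyte genes Adipoq, Plin1 and Fabp4 were at background. The summed level of the list ran from 20943 to 35409 in 1G11-mock arrays and from 33240 to 170454 in the others, and Dcn made up 30.4% to 82.2% of it over the 6 arrays. The part of these differences in the acute-phase ones was not tested. Dcn reached 17.05 on 1G11-SOD3 replicate 3 against 13.51 to 14.78 on the others.

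Further acute-phase plasma proteins outside the 9 genes were read from a list of 22. On this list 3 fell and 0 rose, 12 were well above background on no array, and the median difference was -0.04, with -0.04 also over all 36898 genes, of which 1.27% were called lower and 2.14% higher. The first median is carried by genes at background. Over the 6 members well above background on all arrays of a line it was -0.92, against -0.07 over 15465 such genes. Of the 6, Serpina3n passed this filter through the 1G11-mock arrays alone and Itih4 through the 1G11-SOD3 arrays alone. Lbp, which hands bacterial lipopolysaccharide to CD14, read 15.73, 16.03 and 15.81 in 1G11-mock and 12.95, 12.90 and 12.36 in 1G11-SOD3 cells, 8.67-fold lower (limma, adjusted p = 0.000125). Complement C3 read 15.67, 15.52 and 16.67 against 13.69, 13.56 and 13.83, 4.79-fold lower (limma, adjusted p = 0.00263). Serpina3n, a protease inhibitor, was well above background on the 1G11-mock arrays only and at least 2.84-fold lower in 1G11-SOD3 cells (limma, adjusted p = 0.00271).

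These 3 genes were called with every array left out in turn and at every other setting, unlike Saa3 and Cp. Their excess on 1G11-mock replicate 3 was -0.07 for Lbp, 1.07 for C3 and 0.63 for Serpina3n. Thus the lower level of Lbp did not rest on that array.

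Genes that sense or transmit the signals for acute-phase transcription formed a list of 37, of which 4 fell and 0 rose, 10.8% called lower against 1.27% of all genes. The median was -0.27, and -0.32 over the 27 members well above background on all arrays of a line. Of the 27, Lifr and Il11 passed this filter through the 1G11-SOD3 arrays alone, and Nfkbiz through the 1G11-mock arrays alone. Tlr2 and Tlr4, receptors for bacterial lipids, differed by -2.10 (limma, adjusted p = 0.00663) and -1.67 (limma, adjusted p = 0.0220). Nfkbiz, a nuclear partner of NF-κB that Lcn2 transcription is known to need, read 10.03, 10.23 and 11.21 in 1G11-mock and 8.56, 7.81 and 8.89 in 1G11-SOD3 cells, a difference of -2.07 (limma, adjusted p = 0.00981). Its probe was well above background on 3 1G11-mock and 2 1G11-SOD3 arrays. Nfkbia, the inhibitor that NF-κB itself induces, differed by -1.29 (limma, adjusted p = 0.0173) and was not called on the processed signal. The paper reported no difference between the lines in this mRNA, in an experiment with TNF-α in place of tumor medium. Calls of Tlr4 and Nfkbia were lost when 1G11-mock replicate 2 or 3 or 1G11-SOD3 replicate 1 or 2 was left out (limma, adjusted p up to 0.0929).

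The interleukin-6 arm showed no called difference. Il6 itself was at background on all 6 arrays. Its receptor chain Il6st differed by 0.05, the oncostatin receptor Osmr by -0.15 and the transcription factor Stat3 by 0.31 (limma, adjusted p from 0.581 to 0.959). Of the C/EBP factors, Cebpb differed by -0.32, while Cebpd, whose spot lay in the middle of the array, differed by 0.63 and by -0.47 after position adjustment. On 1G11-mock replicate 3, Osmr stood 1.13 and Nfkbiz 1.09 above the other 1G11-mock arrays. Stat3 stood -0.33 and Cebpd -2.03 from them. Over the 27 signaling genes well above background on all arrays of a line, the median excess was 0.27 and 3 exceeded 1. Over all 19700 probes of that kind the median was 0.06 and 695 exceeded 1.

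Of 23 genes that bind, clear or handle acute-phase proteins and their iron, 22 were on the array, 1 fell and 0 rose, against 1.27% and 2.14% of all genes. The median was -0.03, and 0.53 over the 13 members well above background on all arrays of a line. The second median is the value of Slc40a1. Slc40a1, Tnfaip6 and Tfrc passed this filter through the 1G11-SOD3 arrays alone, each with 2 1G11-mock arrays well above background. The second median therefore shows no shift of the list. The fallen gene was Lrp1, an endocytic receptor (-1.13; limma, adjusted p = 0.0298), which was not called after position adjustment or when any array but 1G11-mock replicate 3 was left out. Slc22a17, a receptor for lipocalin-2, differed by 0.73 (limma, adjusted p = 0.188). Tnfaip6, which binds PTX3, differed by 0.83 (limma, adjusted p = 0.10).

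**Figure D4:**
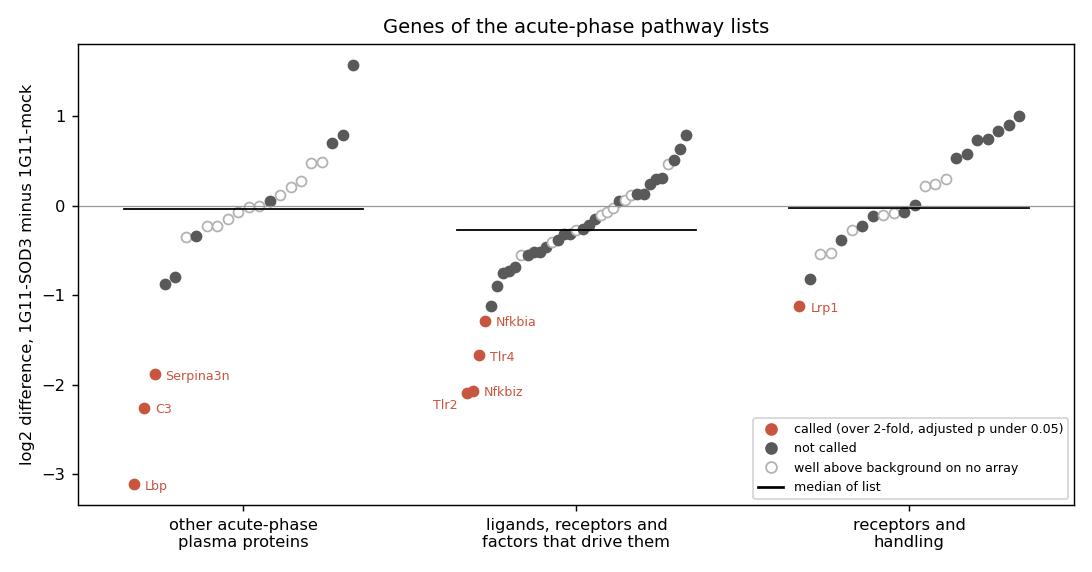
The plot gives the log2 difference between the lines (1G11-SOD3 minus 1G11-mock, vertical axis) for each gene of the 3 pathway lists (horizontal axis, genes in order of their difference). Red points are called, open points were well above background on no array, and black lines are medians. The called genes, Lbp at -3.12 to Lrp1 at -1.13, all lie below 0.

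For the probe of the 9 genes with the highest mean, Cp transcript variant 2, the most similar patterns over the 6 arrays were sought among 15025 probes outside the middle that passed the detection call 6 times in 6. Usp3 (Pearson r = 0.9998), Foxf2 (0.9948) and Fam241a (0.9937) were the named genes among the first 5, and the other 2 probes belong to noncoding regions. With 6 points in 2 separate lines such values mainly describe the step between the lines, and 14 probes had r above 0.99.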

How the data were processed

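Per the file headers, spot intensities came from Agilent Feature Extraction 10.7.3.1. The authors deposited these scanner intensities, not normalized between arrays, and a table of log2 values corrected by normexp and quantile normalized. Here mean intensities were corrected with normexp (local background median, offset of 50), control spots were dropped, log2 values were quantile normalized, outlier spots were left out and spots of a probe averaged (limma 3.58.1, R 4.3.3). The lines were compared by limma with Benjamini-Hochberg adjustment over 55681 probes, and calls needed over 2-fold with an adjusted p below 0.05. Precision was limited by 3 arrays per line. A position adjustment took a smooth surface over rows and columns off each array (mgcv 1.9.3), lowering the SD of the difference among copies of 192 probes printed 10 times from 0.701 to 0.231.

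Same-numbered arrays of both lines deviated together (correlations of 0.20, 0.14 and 0.14 over 19700 probes), and the replicate block was used where it changes a call. Symbols came from RefSeq accessions for 27656 probes, from descriptions for 1508 and from neither for 26517. Lists used 1 probe a gene, the brightest. The genes, lists and tests were chosen with earlier results of these data known. Named are the 9 genes, called list genes (up to 4 each way), 10 preset genes, the brightest gene of each marker list and the 5 probes most like the brightest member. Array coordinates are not those of GRCm38, since 1 of 10 probes falls inside its gene there. The fit was tested on simulated data. Figures used matplotlib 3.10.9.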

Additional observations from a re-analysis of the deposited data

How the results depend on the processing

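Of the differences, those of Saa1, Saa3, Lcn2 and both Cp probes stayed negative at every setting tried, and Hp changed sign. Steap4, at background on 5 of 6 arrays, was negative at the settings that kept it and was not tested where dim probes were left out. Leaving out each array in turn gave -4.68 to -2.39 for Saa3, -2.37 to -0.65 for Saa1, -3.20 to -1.58 for Lcn2, -0.49 to 0.44 for Hp, -1.20 to -0.85 for Cp variant 2, -1.20 to -0.82 for Cp variant 3 and -0.77 to -0.05 for Steap4. With 1 array left out, 0 to 3 of the acute-phase probes were called lower. Without background correction Saa3 was -3.44 and not called (limma, adjusted p = 0.165). With outlier spots kept it was -3.86 (limma, adjusted p = 0.0503). These settings left 1 acute-phase probe called lower each. After position adjustment 0 were called, with Saa3 at -3.51 (limma, adjusted p = 0.0690) and Cp variant 2 at -0.79 (limma, adjusted p = 0.0806). Hp was 0.0002 there, with or without dim probes. When dim probes were left out as well, a combination chosen after seeing the data, Saa3 was called again at -3.51 (limma, adjusted p = 0.0459), Lcn2 passed at -2.58 (limma, adjusted p = 0.0498) and Cp variant 2 remained at -0.79, under 2-fold.

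The processed signal and the 75th percentile scaling moved the median of all probes by -0.52 and -0.33, and each called 4 acute-phase probes lower. On the processed signal 1 of the 4 was Ptx3 (-1.10; limma, adjusted p = 0.0332), which was at background on all 6 arrays. Saa1 passed at -1.81 with the percentile scaling. Lcn2 passed at -2.96 and -2.70, Cp variant 3 passed at -1.59 and -1.15, and Cp variant 2 was lost at -0.65 and -0.89. Hp was 0.16 on the processed signal. Cp variant 3 also passed with dim probes left out at -1.01 (limma, adjusted p = 0.0405) and on the deposited table at -1.03 (limma, adjusted p = 0.0465). With the replicate block 5 acute-phase probes were called lower, Saa1 (-1.77), Lcn2 (-2.66) and Cp variant 3 (-1.01) being added, and Steap3 was called among the handling genes, where 1 then rose. It changed no other call of a named gene. The causes of these changes were not tested. Some settings used fewer arrays or probes, and the part of that was not tested either.

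Over the whole array 1629 probes were called. Without background correction 1056 were called (655 higher), on the processed signal 11118 (9918 lower), with percentile scaling 2598 (1082 lower), and with middle spots removed 842 (299 higher). Position adjustment gave 481 higher and 897 lower, and with dim probes left out 984 in all and 534 higher. Leaving out 1 array gave 775 to 1794 in all, 484 to 1277 higher and 277 to 517 lower. On the list of plasma proteins the processed signal called 10 lower and 1 higher, percentile scaling 1 higher, and leaving out an array 0 to 1 higher. On the list of signaling genes the processed signal called 8 lower and leaving out an array 2 to 4. On the list of handling genes 0 were called lower on the processed signal, with percentile scaling and after position adjustment, 0 to 1 with an array left out, and 1 was called higher on the processed signal and with percentile scaling. Signal over background limits Saa2, Ptx3 and Orm1 to no comparison and Steap4 to a ratio that rests on 1 array.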

Other observations

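Iron handling beyond the 9 genes gave no called difference between the lines. Of the ferrireductases related to Steap4, Steap1, Steap2 and Steap3 differed by 0.75, 0.90 and 1.00 on the log2 scale (limma, adjusted p = 0.284, 0.114 and 0.0749). Each was in the direction of 1G11-SOD3 cells, and Steap3 passed with the replicate block (limma, adjusted p = 0.0270). After position adjustment they differed by 0.74, 0.47 and 0.83 (limma, adjusted p = 0.152, 0.241 and 0.165). The ferritin genes Fth1 and Ftl1 differed by -0.23 and -0.12, the iron exporter Slc40a1 by 0.53 and the iron importer Slc11a2 by -0.82 (limma, adjusted p = 0.0841). These genes are named after their values were seen.

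Behind Saa3, Saa1 and Lcn2, the named genes with the next largest excess on 1G11-mock replicate 3 over the mean of the other 1G11-mock arrays were Nsd3 with 2.44 and Slc2a6, a glucose transporter family member, with 2.34, also chosen after their values were seen. Slc2a6 read 8.63, 8.80 and 11.06 in 1G11-mock cells.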
